A study of Mus musculus with 4 samples.

Results

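Amino acid transporters were followed in mammary tumours that differ in the label of the clock gene Nr1d1. The genes were taken by symbol, as the Slc families 1, 3, 6, 7, 15, 36, 38 and 43, which gave 69 of the 23238 gene symbols in the count files. Earlier results of these data were known when the families were chosen. Of these, 66 are transporter genes, and 3 (Slc36a1os, Slc6a19os and Slc7a6os) are neighbouring genes on the opposite strand that share the stem of the name. RNA sequencing covered 4 mammary tumours taken from female FVB mice aged 14 weeks, 2 labelled Nr1d1+/+;PyMT and 2 labelled Nr1d1-/-;PyMT. All 4 carry PyMT, the polyoma virus middle T antigen, an oncogene that drives mammary carcinoma in the gland. The labels do not name the promoter of that transgene, do not say which exons the Nr1d1 null allele lacks, and do not say that the samples of a genotype came from separate animals. P-values therefore measure only how far these samples spread, which may be technical in part. Replicates of a genotype differed by more than counting noise, with a chi-square per degree of freedom of 43 for Nr1d1+/+ and 55.9 for Nr1d1-/-.

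Amino acids are charged or polar and cross membranes through carriers. Some carriers load cells by riding on the sodium gradient, among them the SLC1, SLC6 and SLC38 families. Others, above all the SLC7 light chains, swap 1 amino acid for another and must pair with a heavy chain of the SLC3 family to reach the surface. A further set sits in the lysosome, where it releases amino acids and reports their supply to the growth kinase mTORC1. In proliferating epithelium the exchangers for leucine and for cystine and the carriers for glutamine are the best studied.

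Total counts ran from 15905404 to 19116279 per library, and the 66 transporter genes took between 0.0886% and 0.12% of them. Nr1d1 itself stood at 20.2 and 10.3 CPM (read counts scaled to library size and TMM factors) in the Nr1d1+/+ libraries and at 10.6 and 12.8 CPM in those labelled Nr1d1-/-, so its level did not check the labels, and directions below rest on the labels. Luminal markers of the gland were abundant, with Krt8 between 1269 and 2495 CPM and Epcam between 702 and 1221 CPM, while Pgr and Foxa1 stayed under 1 CPM in all 4 libraries. The library labelled Nr1d1-/- replicate 1 stood apart in skeletal muscle transcripts. The 12 markers of muscle summed to 894 CPM there and to between 2.59 and 6.27 CPM in the other libraries. The luminal markers summed to 6975 and 5976 CPM in the Nr1d1+/+ libraries and to 10882 and 10036 CPM in those labelled Nr1d1-/-. Of 12 tested, 5 were higher and 1 lower (50% called, beside 33.9% of all genes). Sums were likewise higher in both libraries labelled Nr1d1-/- for myoepithelium (163 and 177 against 377 and 520.0 CPM), endothelium (52 and 63.2 against 105 and 123 CPM) and red blood cells (453 and 581 against 2017 and 2194 CPM). The T and NK cell sum was also higher (14.4 and 18.1 against 22.1 and 20.6 CPM). Of its 7 tested markers, however, 1 was higher and 1 lower (28.6% called, beside 33.9% of all genes), with a median log2 fold of -0.15. The part of these cell types in the results below was not tested. In bulk tumours, fewer cells of a type and less RNA per cell cannot be told apart.

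Transporters changed in both directions, about as often as genes at large. Of the 69 genes, 42 passed the filter on low counts and were tested, 38 of them with enough counts in both genotypes. By edgeR's quasi-likelihood test at an adjusted p under 0.05, 8 were higher and 5 lower in the libraries labelled Nr1d1-/-, and 29 did not pass. The lower genes include Slc36a4, which passed the filter through the Nr1d1+/+ libraries alone. The share called, 31%, is near the 33.9% of all 14801 tested genes (16.5% higher and 17.3% lower), so the count alone does not set these genes apart. Their median log2 fold (Nr1d1-/- over Nr1d1+/+) was -0.05, against -0.01 for all tested genes. With library size as the only scaling, which moved the median of all genes to -0.38, 2 were higher and 11 lower, and over all genes 22.5% of the calls were then higher in place of 48.8%. Without the library with the muscle transcripts, 4 transporters were higher and 5 lower, while of all genes 1830 were higher and 2019 lower, 25.2% of 15290 tested.

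By family, 5 of 12 tested genes with SLC7 names (Slc7a6os among them) were higher and none lower, while 2 of 7 tested SLC38 genes were lower and none higher. Of all tested genes, 16.5% were higher and 17.3% lower, and counts this small do not set a family apart. Of the 5 SLC7 calls, 2 (Slc7a13 and Slc7a14) were kept without replicate 1 or 2 of Nr1d1+/+ or without replicate 1 of Nr1d1-/-. The same 2 were kept under plain library-size scaling, where Slc7a1 was called lower. The summed level of the SLC7 family was 174 and 185 CPM in the Nr1d1+/+ libraries and 325 and 253 CPM in those labelled Nr1d1-/-. For the SLC38 family it was 295 and 331 CPM against 247 and 241 CPM. The genotypes overlapped in neither sum, and the same held for 6 of the 8 families. SLC1 (70.8 and 75.1 against 109.9 and 78.7 CPM) and SLC3 (138 and 137 against 214 and 175 CPM) were higher in both libraries labelled Nr1d1-/-. SLC6 (98.1 and 104 against 94.7 and 84.9 CPM) and SLC36 (16.4 and 13.6 against 12.4 and 9.12 CPM) were lower in both. Single genes can carry such sums. Slc1a2 was at 35.1 and 37.3 against 82.3 and 58.6 CPM, while 3 of 5 tested SLC1 genes had a negative fold (median log2 fold -0.64). Slc3a2, which did not pass, made up most of the SLC3 sum. No test was run on the sums, and SLC15 and SLC43 overlapped. The sum over all 66 transporter genes was 991, 1023, 1215 and 990.1 CPM in the Nr1d1+/+ pair and then the pair labelled Nr1d1-/-, so the genotypes overlapped there. Values of 30 of the 42 tested genes did not overlap between genotypes, 71.4%, beside 70.5% of all tested genes.

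**Figure D1:**
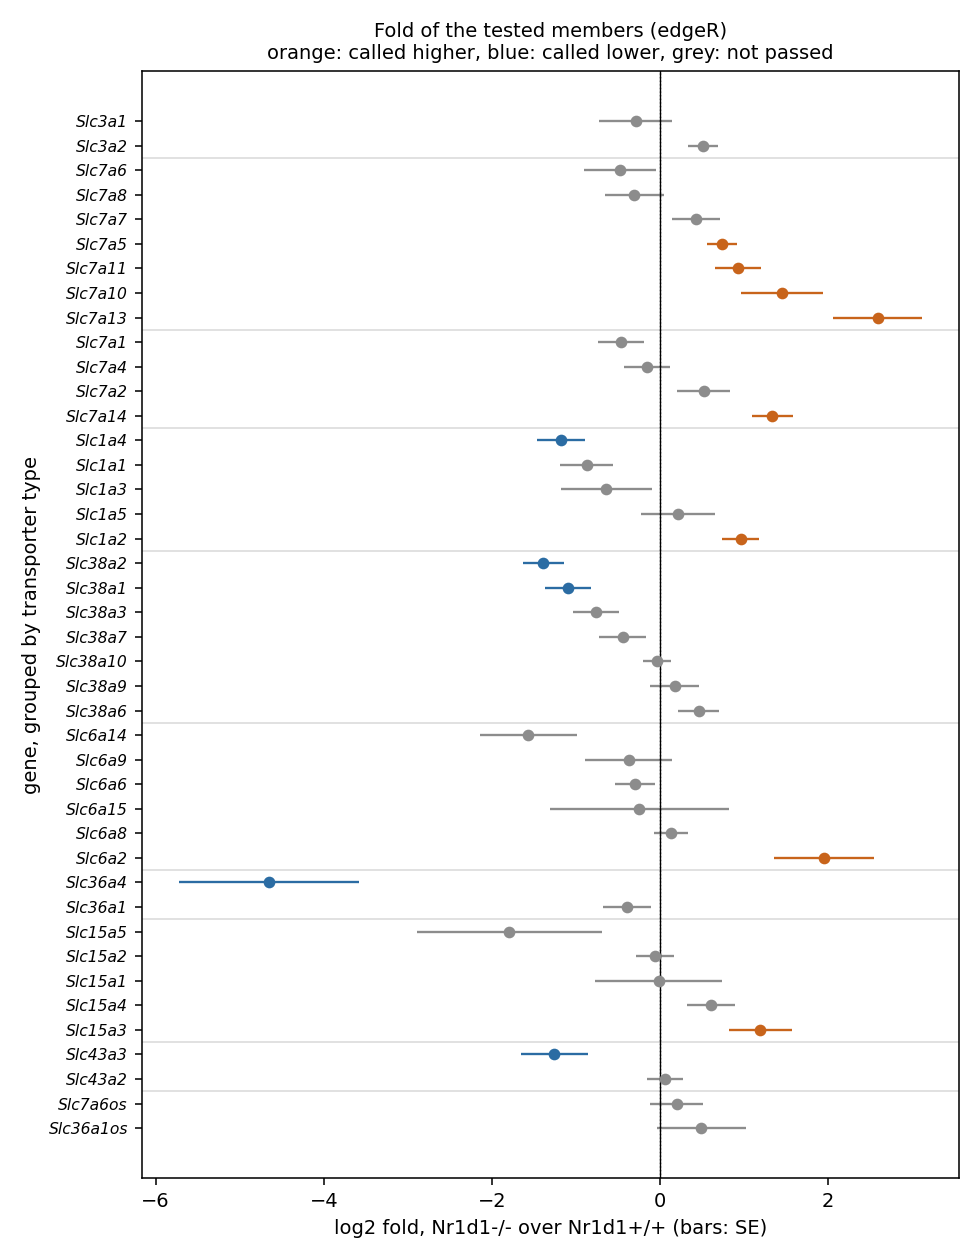
Log2 fold of the 42 tested genes (x axis, Nr1d1-/- over Nr1d1+/+, bars are the standard error), grouped by transporter type on the y axis; orange marks 8 genes called higher, blue 5 called lower and grey 29 not passed. The dotted line is the median of all tested genes, -0.01, and the SLC38 genes called lie on the left while the SLC7 genes called lie on the right.

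Slc3a2 had the highest level per kilobase of all transporter genes, and its light chain partner Slc7a5 rose. Slc3a2 encodes the CD98 heavy chain, which carries several SLC7 light chains to the plasma membrane. Its level was 133.9 and 134.5 CPM in the Nr1d1+/+ libraries and 211 and 173 CPM in those labelled Nr1d1-/-. Both of the latter were above both of the former, but the log2 fold of 0.51 (SE 0.18) missed the threshold (adjusted p = 0.0524 in edgeR). Over 17 alternatives the adjusted p of Slc3a2 ran from 0.0326 with upper quartile scaling to 0.576 under plain library-size scaling. Slc7a5 encodes LAT1, the exchanger that brings in leucine and other large neutral amino acids in return for glutamine. In the GRCm38 genome its minus-strand gene spans 121881150 to 121907694 of chromosome 8. Slc7a5 stood at 68.3 and 71.5 CPM against 128 and 105 CPM, with no overlap. It rose by a log2 fold of 0.74 (SE 0.18, adjusted p = 0.0162 in edgeR), 0.67 after removal of GC and length trends (0.0309) and 0.35 under plain library-size scaling (0.158). Slc7a5 was called in 12 of 17 alternatives, and not without replicate 1 or 2 of Nr1d1+/+ (0.0912 and 0.0742) or replicate 1 of Nr1d1-/- (0.0683).

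Per kilobase of transcript, LAT1 messages were 0.264 and 0.275 of the heavy chain's in the Nr1d1+/+ libraries and 0.314 and 0.315 in those labelled Nr1d1-/-. The ratio was thus a little higher in both of the latter, and no test was run on it. The light chains Slc7a8, Slc7a6 and Slc7a7 of the heteromeric exchangers were below Slc7a5 in every library. Per kilobase, Slc7a8 was 0.0345 to 0.0813 of Slc7a5, Slc7a6 0.0156 to 0.0477 and Slc7a7 0.175 to 0.324. Slc7a8, encoding LAT2, stood between 4.78 and 6.75 CPM and Slc7a6, encoding a partner for arginine and glutamine exchange, between 2.13 and 3.64 CPM. Slc7a7, its relative known from macrophages and gut, stood at 12.8, 12.6, 13.6 and 20.6 CPM, in the order of Nr1d1+/+ replicates 1 and 2 and Nr1d1-/- replicates 1 and 2. None of these 3 passed the test.

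Slc7a11 encodes xCT, which takes up cystine in exchange for glutamate and so feeds glutathione synthesis. Its level was 12.3 and 15.1 CPM against 31 and 21.2 CPM, and the genotypes did not overlap. Slc7a11 rose by a log2 fold of 0.92 (SE 0.27, adjusted p = 0.0304 in edgeR). The log2 fold was 1.55 (0.00628) after removal of GC and length trends and 0.54 (0.156) under plain library-size scaling. It was called in 11 of 17 alternatives, and not without replicate 1 or 2 of Nr1d1+/+ (0.17 and 0.0782) or replicate 1 of Nr1d1-/- (0.148).

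Slc7a13 had the largest positive fold among the transporters. It encodes AGT1, an acidic amino acid and cystine carrier known from the kidney tubule, where it pairs with the heavy chain Slc3a1. Slc7a13 counted 65 and 30 reads in the Nr1d1+/+ libraries and 265 and 129 in those labelled Nr1d1-/-, or 3.08 and 1.44 CPM against 19.4 and 8 CPM. Replicates of 1 genotype differed by more than for most members, yet the genotypes did not overlap. The log2 fold was 2.59 (SE 0.53, adjusted p = 0.00778 in edgeR), and it stayed between 1.82 and 3.19 over 17 alternatives, called in each. Slc3a1 itself was at 3.93, 2.92, 3.08 and 2.54 CPM and did not pass (log2 fold -0.29, SE 0.43). Slc3a1 shares 601 exonic bases with Prepl on the other strand, and the sources used here do not say whether strand was used in counting.

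Slc7a10 encodes Asc-1, an exchanger of small neutral amino acids that is also a marker of white adipocytes. It is named here although its mean is under 5 CPM, as are Slc6a2 and Slc36a4 below, after its values were seen. Slc7a10 was at 2.41 and 1.53 CPM against 7.18 and 3.72 CPM. Its log2 fold was 1.45 (SE 0.49, adjusted p = 0.0487 in edgeR) and 0.71 (0.324) after removal of GC and length trends. It was called in 7 of 16 alternatives, and not without replicate 1 or 2 of Nr1d1+/+ (0.0981 and 0.261) or replicate 1 of Nr1d1-/- (0.229). Adipocyte markers moved with it: 5 of 9 tested were higher (55.6%, beside 16.5% of all genes) and none lower, and all 10 summed to 71.1 and 90.7 CPM against 304 and 203 CPM, with Lep at 0 counts in both libraries labelled Nr1d1-/-. Their part in the result was not tested. Slc7a10 also shares 377 exonic bases with Lrp3 on the other strand, which rose by a log2 fold of 1.81 (SE 0.44, adjusted p = 0.0152 in edgeR), so their reads may not be told apart.

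**Figure D2:**
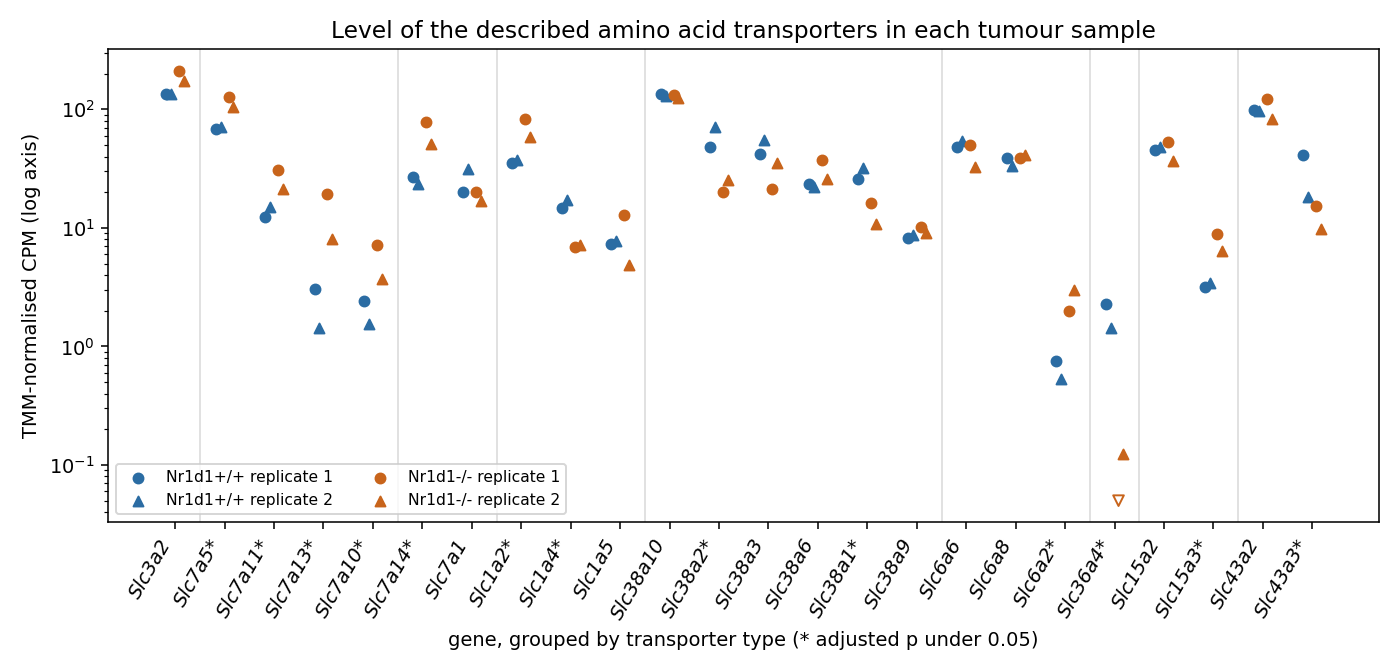
TMM-normalised CPM (log axis) of the described transporters in each of the 4 samples, blue for Nr1d1+/+ and orange for Nr1d1-/-, circles for replicate 1 and triangles for replicate 2, with an asterisk where the adjusted p was under 0.05; the open triangle marks a sample with 0 counts. Slc38a2 is at 48.5 and 70.3 against 20.2 and 25.2 CPM, and Slc7a5 shows the opposite order.

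Among genes of the cationic transporter type, Slc7a14 was the one that rose. It encodes a lysosomal relative of the arginine and lysine carriers that is best known from neural tissue. Slc7a14 spans 31202858 to 31310378 of chromosome 3, minus strand, and its level was 27.1 and 23.7 CPM against 77.6 and 50.8 CPM. The lower Nr1d1-/- value was above both Nr1d1+/+ values, and the log2 fold was 1.34 (SE 0.25, adjusted p = 0.00526 in edgeR). It ran from 0.95 to 1.74 over 17 alternatives and was called in each. Slc7a1, the general arginine and lysine carrier CAT1, had 20.1 and 31.3 CPM against 20.2 and 16.9 CPM, with overlap (log2 fold -0.47, SE 0.28, adjusted p = 0.217 in edgeR). With library size only Slc7a1 passed as lower (-0.86, 0.0406). Slc7a2, the inducible CAT2, had 6.91 and 5.84 against 9.75 and 8.56 CPM. It did not pass (log2 fold 0.52, SE 0.31, adjusted p = 0.228 in edgeR), and it did after removal of GC and length trends (1.07, 0.0434). Slc7a4, the orphan member, lay between 10.1 and 11.6 CPM in all 4 libraries.

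Neural transcripts were looked at beside Slc7a14 and beside Slc1a2 below, since both genes are known from the nervous system. S100b, a calcium-binding protein gene of glia that adipocytes also express, rose from 4.50 and 3.64 CPM to 18.7 and 25.9 CPM (log2 fold 2.46, SE 0.31, adjusted p = 0.00223 in edgeR), and its part in these results was not tested. Sox10, a factor of glia that mammary epithelium also expresses, was at 270.4 and 259.8 against 247 and 251 CPM and did not pass. Syt1, Tubb3, Gfap and Aqp4 stayed under 1 CPM in every library. These genes are a part of the neuron and glia markers and do not stand for all of them, so neural content cannot be judged from them. S100b and Sox10 are named after their values were seen.

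The SLC1 family moved in both directions. Slc1a2 encodes GLT-1, a glutamate carrier of astrocytes. Its level was 35.1 and 37.3 CPM against 82.3 and 58.6 CPM, with no overlap. Slc1a2 rose by a log2 fold of 0.96 (SE 0.22, adjusted p = 0.0116 in edgeR), 0.57 under plain library-size scaling (0.0622) and 0.87 without Nr1d1+/+ replicate 1 (0.0571). Slc1a4, by contrast, encodes ASCT1, an exchanger of alanine, serine and cysteine, and fell from 14.8 and 17 CPM to 6.89 and 7.14 CPM. The log2 fold was -1.18 (SE 0.28, adjusted p = 0.0138 in edgeR), and -1.10 (0.0926) without Nr1d1+/+ replicate 2, which did not pass.

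Slc1a5 encodes ASCT2, the glutamine carrier most often studied in tumours. It had 7.38 and 7.8 CPM in the Nr1d1+/+ libraries, with 12.9 and 4.9 CPM on either side of them in those labelled Nr1d1-/-. Its log2 fold of 0.21 (SE 0.44, adjusted p = 0.735 in edgeR) had no stable sign, at 0.75 without Nr1d1-/- replicate 2, -0.63 without Nr1d1-/- replicate 1 and -0.18 under plain library-size scaling. Slc1a1, a neuronal and epithelial glutamate carrier, was at 11.4 and 10.1 CPM against 5.06 and 6.64 CPM and missed the threshold (log2 fold -0.87, SE 0.32, adjusted p = 0.0622 in edgeR), and it was called lower under plain library-size scaling.

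The sodium-coupled neutral carriers of the SLC38 family held both members of system A that were expressed, and both fell. System A takes up alanine, serine and glutamine with sodium, and its member SNAT2 is known to be induced when amino acids run short. Slc38a1 (SNAT1, 96571418 to 96642913) and Slc38a2 (SNAT2, 96687392 to 96699730) lie close together on the minus strand of chromosome 15. Slc38a2 had 1025 and 1469 reads in the Nr1d1+/+ libraries and 275 and 406 in those labelled Nr1d1-/-, which is 48.5 and 70.3 CPM against 20.2 and 25.2 CPM. Slc38a1 was at 25.7 and 31.8 CPM against 16.2 and 10.9 CPM, and neither gene's values overlapped between genotypes. Slc38a4, further along the same chromosome, had at most 2 counts in any library.

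For Slc38a2 the log2 fold was -1.39 (SE 0.25, adjusted p = 0.00479 in edgeR), and it was called lower in all 17 alternatives, between -1.77 and -0.79. For Slc38a1 it was -1.09 (SE 0.27, adjusted p = 0.0164 in edgeR). After removal of GC and length trends the log2 fold of Slc38a1 was -0.61 and did not pass (0.122), nor did it without Nr1d1+/+ replicate 2 (-0.96, 0.0935) or Nr1d1-/- replicate 2 (-0.85, 0.0516). Per kilobase, Slc38a2 messages were 2.05 and 2.41 times those of Slc38a1 in the Nr1d1+/+ libraries, and 1.36 and 2.53 times in those labelled Nr1d1-/-, so the ratio overlapped.

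Slc38a3, encoding the system N carrier SNAT3 that moves glutamine in either direction, had 41.8 and 55 CPM against 21.3 and 35.4 CPM. Its values did not overlap, and the log2 fold of -0.77 (SE 0.27) missed the threshold (adjusted p = 0.0594 in edgeR). It passed as lower after removal of GC and length trends (-0.95, 0.0368), in DESeq2 (-0.76, 0.0393), under plain library-size scaling (-1.14, 0.0128) and without Nr1d1-/- replicate 2 (-1.20, 0.0129). The other SLC38 members gave no call. Slc38a10, the most abundant of the family, was at 135, 130.4, 132 and 126 CPM (log2 fold -0.04, SE 0.17, adjusted p = 0.871 in edgeR). Slc38a6 was at 23.6 and 22 against 37.2 and 25.6 CPM (0.46, SE 0.24, adjusted p = 0.179 in edgeR).

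Slc38a9, Slc38a7 and Slc36a1, which act at the lysosome, did not pass. Slc38a9 encodes the arginine sensor that activates mTORC1 from the lysosome, and it stood at 8.28 and 8.67 against 10.1 and 9.06 CPM (log2 fold 0.18, SE 0.29, adjusted p = 0.669 in edgeR). Its sign turned to -0.20 under plain library-size scaling. Slc38a7, a lysosomal glutamine carrier, was at 12.5 and 12.9 against 10.2 and 8.56 CPM, and Slc36a1, the proton-coupled carrier PAT1 of lysosomes and gut, at 14 and 11.9 against 10.8 and 8.81 CPM. Neither passed, with log2 folds of -0.44 (SE 0.28) and -0.40 (SE 0.28), although Slc38a7 was called lower under plain library-size scaling.

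Slc36a4 encodes PAT4, a high-affinity proline and tryptophan carrier, and was nearly absent from the libraries labelled Nr1d1-/-. It had 48 and 30 counts in the Nr1d1+/+ libraries and 0 and 2 in those labelled Nr1d1-/-. The gene passed the filter through the Nr1d1+/+ libraries alone, and it was called lower (adjusted p = 0.0097 in edgeR). Over both libraries of a genotype, 78 counts stood against 2, a level 0.0362 times as high with an exact 95% interval of 0.00431 to 0.135 for counting error only. The call was lost without Nr1d1+/+ replicate 1 (adjusted p = 0.0887).

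In the SLC6 family, 1 of 6 tested genes was called, beside 33.9% of all genes. Slc6a2 encodes the noradrenaline transporter, and it had 16 and 11 counts against 27 and 48, or 0.757 and 0.527 CPM against 1.98 and 2.98 CPM (log2 fold 1.95, SE 0.59, adjusted p = 0.0334 in edgeR). It was called in 9 of 16 alternatives, and not without replicate 1 or 2 of Nr1d1+/+ (0.143 and 0.24) or replicate 2 of Nr1d1-/- (0.104). Both abundant members gave no call: Slc6a6, the taurine transporter, was at 48 and 53.8 against 50.1 and 32.7 CPM (log2 fold -0.30, SE 0.24, adjusted p = 0.358 in edgeR), with the sign turned to 0.03 after removal of GC and length trends. Under plain library-size scaling Slc6a6 was called lower (-0.69, 0.045). Slc6a8, the creatine transporter, was at 39.2 and 33.6 against 38.8 and 40.9 CPM (0.13, SE 0.20, adjusted p = 0.641 in edgeR), with -0.25 under plain library-size scaling.

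In the SLC15 family of peptide and histidine carriers, Slc15a3 was the one that rose. It encodes PHT2, a lysosomal carrier of histidine and peptides known from macrophages and dendritic cells. Slc15a3 was at 3.17 and 3.4 CPM against 8.8 and 6.33 CPM (log2 fold 1.19, SE 0.37, adjusted p = 0.0358 in edgeR). It lost the call after removal of GC and length trends (0.96, 0.0975), under plain library-size scaling (0.118) and without replicate 1 or 2 of Nr1d1+/+ (0.173 and 0.154) or replicate 1 of Nr1d1-/- (0.129). Slc15a3 shares 1541 exonic bases with Tmem132a on the opposite strand, which was the more abundant gene at 26 and 27.8 against 34.5 and 53.1 CPM. Macrophage and monocyte markers overlapped between genotypes as a sum, at 299.6 and 369 against 342 and 404 CPM. Of 11 tested, 2 were higher and 1 lower (27.3% called, beside 33.9% of all genes). Slc15a4, its relative PHT1, was at 7.81 and 7.8 against 12.8 and 11.1 CPM and did not pass (0.61, SE 0.29, adjusted p = 0.131 in edgeR). Slc15a2, the peptide carrier PEPT2 of kidney and mammary epithelium, was far more abundant, at 45.3 and 47.9 against 53.1 and 36.7 CPM (-0.06, SE 0.22, adjusted p = 0.866 in edgeR). Its sign turned to 0.17 without Nr1d1-/- replicate 2.

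Of both tested SLC43 genes, Slc43a3 fell and Slc43a2 gave no call. Slc43a3 is now known as a purine base carrier in place of an amino acid one. It was at 41.3 and 18.1 CPM against 15.2 and 9.8 CPM, so that replicates of Nr1d1+/+ differed more from each other than the nearest values across genotypes. The log2 fold was -1.26 (SE 0.40, adjusted p = 0.0391 in edgeR), and it was -0.59 (0.307) without Nr1d1+/+ replicate 1 and -0.99 (0.122) without Nr1d1-/- replicate 2. It was also lost after removal of GC and length trends (-1.15, 0.069). Slc43a2 encodes LAT4, which lets large neutral amino acids out of cells, and was at 98.6 and 97.7 against 122 and 82.8 CPM (0.06, SE 0.21, adjusted p = 0.854 in edgeR). Its sign turned to -0.33 under plain library-size scaling and to -0.25 without Nr1d1-/- replicate 1.

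**Figure D3:**
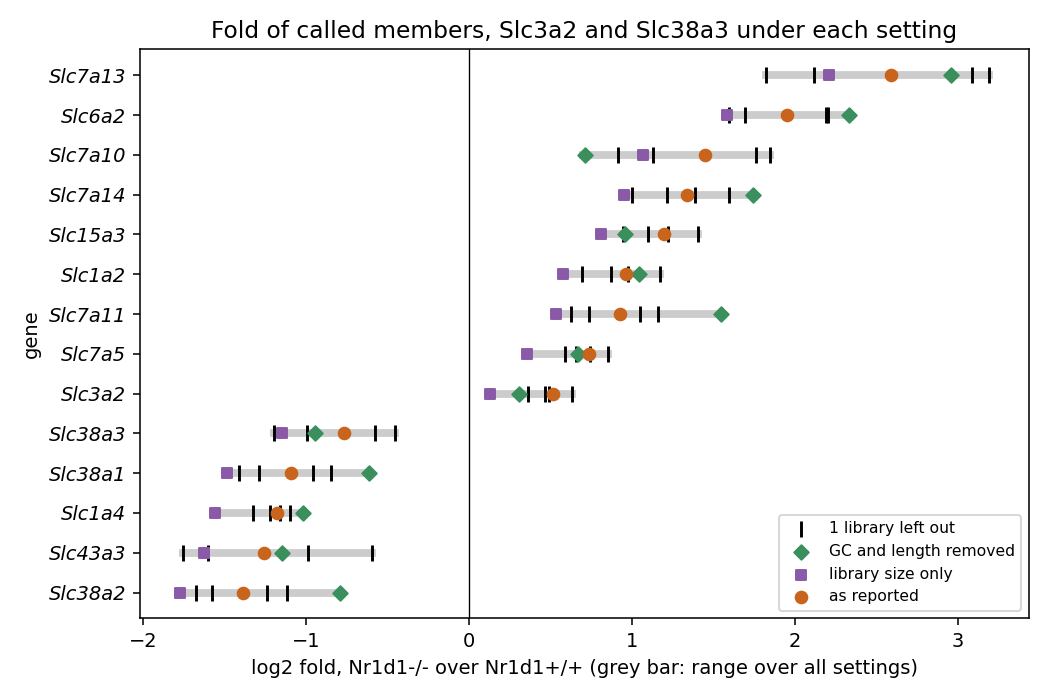
Log2 fold (x axis) of 12 of the 13 called transporters, Slc3a2 and Slc38a3 as reported (orange), after removal of GC and length trends (green), under library size only (purple) and with each library left out (ticks); the grey bar spans all settings. Slc36a4 is left out because its fold rests on 2 counts in 1 genotype. Every bar stays on 1 side of 0, and Slc7a11 moves most to the right, from 0.92 to 1.55, once GC and length are removed.

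Compared per kilobase of transcript over the 4 libraries, Slc3a2 was the highest transporter gene at 89.6 CPM per kilobase, and Slc38a10 followed at 43.6. Slc15a2 (28.4), Slc7a5 (26.5) and Slc1a2 (25.3) came next, and their values overlapped across samples, so their order is not set. Slc38a3 was at 15.2, Slc43a2 at 14.3 and Slc6a8 at 13.1, again with overlap. The order of Slc1a2 and Slc15a2 depends on which transcript is expressed. With the longest in place of the median transcript length, Slc1a2 was at 4.60 and Slc15a2 at 11.5 CPM per kilobase, below Slc7a5 at 26.5. Together, 5 genes (Slc3a2, Slc38a10, Slc43a2, Slc7a5 and Slc1a2) made up 51.3% of the summed CPM of the transporter genes.

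**Figure D4:**
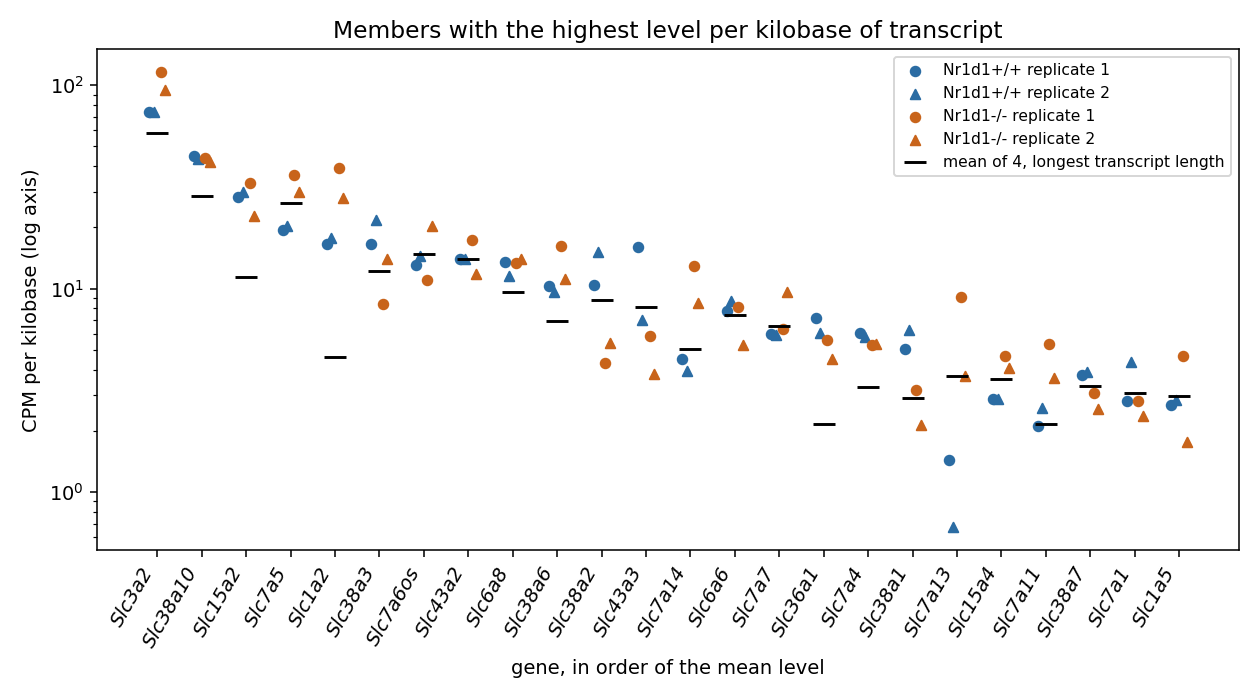
CPM per kilobase of median transcript length (log axis) for the 24 genes of the set with the highest mean, 1 point per sample as in the plot of CPM; black bars give the mean of 4 samples with the longest transcript length. Slc3a2 is highest in every sample, and the bar of Slc1a2 at 4.60 lies far below its points.

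A total of 27 genes were too low to test. Of these, 12 had no count in any library, among them Slc38a5, Slc6a20a, Slc7a9 and Slc7a12. The 0 counts allow a level of up to 0.142, 0.144, 0.22 and 0.186 CPM in the 4 libraries, the value of 3 counts, for counting error only. Slc6a19, the main neutral carrier of gut and kidney, had 3 counts in 1 library and none in the others. Slc1a7 had 5, 8, 13 and 6 counts, and Slc6a20b had between 4 and 6.

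Promoter letters were read because several transporter genes are classical targets of ATF4, the factor that answers amino acid shortage through the C/EBP-ATF response element. RefSeq windows (GRCm38.p6) of 250 bases before to 50 after a start were given for 50 of the 69 genes. The letters TGATGNAA, searched on both strands, stood in 5 of 71 windows of these genes, in 4 genes (Slc7a11, Slc7a7, Slc1a4 and Slc15a5), and in 3.97% of all 32851 windows. Windows of a gene can overlap, and a site shared by overlapping Slc7a7 windows is counted in each. By gene, 4 of 50 held the letters, beside 1219 of all 27025 genes with a window. Shown are 150 bases before to 10 after the start of the 3 genes with a match in that stretch. Beside them stand Slc3a2, which holds the core letters that REV-ERB and ROR receptors bind, and Slc38a2, whose window holds neither. Sequence outside the windows was not searched, so an element elsewhere in a gene would be missed. Capitals mark TGATGNAA in Slc7a11, Slc7a7 and Slc1a4 and TGGGTCA in Slc3a2, and all 5 stretches lie on the minus strand:
Slc7a11, chr3:50443604-50443763: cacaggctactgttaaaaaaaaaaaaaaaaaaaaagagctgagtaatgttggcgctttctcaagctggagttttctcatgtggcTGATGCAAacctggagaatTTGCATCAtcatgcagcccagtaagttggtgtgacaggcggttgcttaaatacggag
Slc7a7, chr14:54417935-54418094: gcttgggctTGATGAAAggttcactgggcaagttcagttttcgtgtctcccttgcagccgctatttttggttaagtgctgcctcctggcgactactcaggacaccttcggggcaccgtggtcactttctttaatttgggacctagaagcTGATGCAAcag
Slc1a4, chr11:20332704-20332863: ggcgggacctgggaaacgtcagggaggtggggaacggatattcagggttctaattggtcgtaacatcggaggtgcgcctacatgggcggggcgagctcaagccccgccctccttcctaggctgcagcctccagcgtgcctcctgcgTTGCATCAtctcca
Slc3a2, chr19:8713888-8714047: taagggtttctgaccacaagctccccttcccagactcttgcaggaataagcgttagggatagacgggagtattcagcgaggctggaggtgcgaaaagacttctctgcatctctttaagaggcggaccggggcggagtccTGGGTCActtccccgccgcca
Slc38a2, chr15:96699719-96699878: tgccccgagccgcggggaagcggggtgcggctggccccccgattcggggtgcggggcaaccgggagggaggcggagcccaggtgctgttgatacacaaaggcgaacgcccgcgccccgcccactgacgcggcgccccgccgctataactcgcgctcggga

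Slc7a11 carries the letters in both orientations, beginning 66 and 47 bases before its start, and this gene rose. In Slc1a4 the single match begins 4 bases before the start, and this gene fell. Slc7a7 did not pass the test. Windows were given for only 4 of the 8 genes called higher and 3 of the 5 called lower, and the other called genes were not searched. Matching letters were thus found beside 1 searched gene of each direction. The receptor letters TAGGTCA or TGGGTCA stood in 2 of 71 windows, those of Slc3a2 and Slc1a1, neither of which passed the test, and in 6.45% of all windows. The E-box CACGTG stood in 8 of 71 windows and in 7.15% of all windows. It was found in Slc36a1, in Slc38a7 and in Slc7a14, of which Slc7a14 was called.

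The wider amino acid stress response had 9 of 41 tested genes higher and 3 lower (29.3% called, beside 33.9% of all genes). Its median log2 fold was 0.13. Psat1, an enzyme of serine synthesis, rose from 45.1 ± 8.26 to 90.4 ± 19.8 CPM (SD, n = 2 per genotype), and Cars, the cysteinyl-tRNA synthetase, from 70.4 ± 1.59 to 135 ± 34.8 CPM. Gcn1l1, which encodes the activator of the amino acid sensing kinase GCN2, rose from 49.9 ± 5.4 to 128 ± 46 CPM. Ddit4, an mTORC1 inhibitor, rose from 12.2 ± 0.301 to 25.2 ± 3.92 CPM and did not pass after removal of GC and length trends (0.124). Atf4 itself had a log2 fold of -0.07 (SE 0.18, adjusted p = 0.8 in edgeR) and Asns, asparagine synthetase and a standard ATF4 target, 0.30 (SE 0.21, adjusted p = 0.303 in edgeR). Both are named as the factor and its reference target, after their values were seen.

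Of 37 tested genes of amino acid sensing upstream of mTORC1, 8 were higher and 5 lower (35.1% called, beside 33.9% of all genes), with a median log2 fold of 0.12. Lamtor4, a subunit of the Ragulator scaffold on the lysosome, rose from 44.2 ± 2.22 to 110 ± 5.23 CPM (log2 fold 1.32, SE 0.18). Rnf152, a ubiquitin ligase of RagA, rose from 15.2 ± 2.77 to 40.4 ± 9.03 CPM. Mtor, the kinase itself, fell from 37 ± 7.08 to 16.8 ± 2.78 CPM (-1.14, SE 0.25). Seh1l, a subunit of the GATOR complex and of the nuclear pore, fell from 46.4 ± 3.93 to 23.8 ± 0.852 CPM, and it did not pass after removal of GC and length trends (0.0662).

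Among 19 tested amino acid carriers outside the 8 families, 3 were higher and 4 lower (36.8% called, beside 33.9% of all genes), with a median log2 fold of -0.07. Ctns, the exporter of cystine from the lysosome, fell from 37.8 ± 0.858 to 9.02 ± 1.87 CPM (log2 fold -2.07, SE 0.25, adjusted p = 0.00207 in edgeR). The mitochondrial serine carrier genes went apart: Sfxn3 rose from 131 ± 9.36 to 271 ± 53.7 CPM and Sfxn1 fell from 51.7 ± 6.09 to 27.4 ± 3.36 CPM, the latter not passing after removal of GC and length trends (0.0648). Slc17a8, a vesicular glutamate carrier, rose from 2.23 ± 1.13 to 7.3 ± 0.668 CPM.

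Of 14 tested partners and regulators of the transporters, 2 were higher and 4 lower (42.9% called, beside 33.9% of all genes), with a median log2 fold of -0.20. Nedd4 and Nedd4l encode ubiquitin ligases that remove several amino acid transporters from the cell surface. Nedd4 fell from 509.8 ± 118 to 161 ± 1.55 CPM (log2 fold -1.66, SE 0.20, adjusted p = 0.00211 in edgeR), and Nedd4l from 125 ± 10.4 to 50.8 ± 13 CPM (-1.30, SE 0.22, adjusted p = 0.00391 in edgeR). Bsg, which encodes basigin, an escort of lactate carriers that also binds CD98, rose from 1077 ± 52.9 to 2183 ± 65.6 CPM, and Pdzk1ip1 from 21.9 ± 2.17 to 38.4 ± 6.75 CPM. Neither Bsg nor Pdzk1ip1 passed after removal of GC and length trends (0.099 and 0.423).

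Of 26 tested enzymes that use the transported amino acids, 4 were higher and 5 lower (34.6% called, beside 33.9% of all genes), with a median log2 fold of 0.08. Downstream of cystine uptake, Gclc, the catalytic subunit of the first enzyme of glutathione synthesis, fell from 13.2 ± 1.42 to 2.83 ± 0.475 CPM (log2 fold -2.21, SE 0.34, adjusted p = 0.00328 in edgeR). Slc7a11 and Gclc therefore went in opposite directions in the same libraries. Gpx4, a glutathione peroxidase, rose from 401 ± 9.76 to 809 ± 97.5 CPM, and did not pass after removal of GC and length trends (0.341). Bcat2, which starts the breakdown of leucine and other branched chain amino acids in mitochondria, rose from 39.8 ± 3.57 to 104 ± 32.7 CPM (1.39, SE 0.24, adjusted p = 0.00439 in edgeR). Asl, argininosuccinate lyase, rose from 94.3 ± 5.43 to 176 ± 11.1 CPM.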

How the data were processed

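Each library was deposited as a table of unnormalised read counts, 1 row per gene symbol. Reads were aligned with TopHat to mm10, per the submitters' processing notes. Libraries were built from Trizol RNA with a stranded SMARTer kit, per the labels' protocols. The sources used here do not give versions, the counting program, the annotation or the strand setting. The 69 genes and all gene lists were chosen with earlier results of these data known. From the counts, genes with too few reads were left out (filterByExpr of edgeR, minimum count 10), counts were scaled with TMM factors (1.11, 1.18, 0.859 and 0.895), and 14801 genes entered edgeR 4.0.16, quasi-likelihood F test (legacy=FALSE) in R 4.3.3, with 2 residual degrees of freedom and genotype as the only term. P-values were adjusted by Benjamini-Hochberg over all tested genes. The SE of a log2 fold is its size over the square root of F. A simulated 2 against 2 comparison called 88.9% of genes changed 4-fold and 10.2% of those changed 2-fold, among 14619 genes. Only 200 genes were changed in it, and every gene had the same dispersion. Those rates therefore do not give the power of the real comparison, in which 33.9% of all genes were called. Lengths, GC content and positions came from GENCODE M21 on GRCm38, which mm10 names too, joined for 69 of 69 genes. The GC and length fit passed natural splines (5 degrees of freedom each) per library as offsets. Genes described by rule were those called with a mean of at least 5 CPM, 7 fixed anchors, and those not passed with a mean of at least 20 CPM. In other lists, up to 4 called genes of lowest p are described. Limma 3.58.1 and DESeq2 1.42.0 were alternatives. A marker of the neuron and glia list, and the sums and counts over that list, are not reported here.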

Additional observations from a re-analysis of the deposited data

How the results depend on the processing

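In 17 alternatives no called transporter changed its sign, and Slc7a13, Slc7a14 and Slc38a2 were called in every one. Slc36a4, Slc6a2 and Slc7a10 have 16 alternatives, since the filter at 5 CPM leaves them out. The looser threshold on adjusted p and the minimum log2 fold, both given below, reuse the reported fit. In both the sign is therefore fixed. Under the looser threshold no call can be lost, and under the minimum fold a call is lost only through the size of its fold. Tallies over 16 or 17 alternatives count both. With 2 libraries per genotype the 10 other calls were lost in at least 1 alternative, and low counts limit Slc36a4, Slc6a2 and Slc7a10. The cause was not tested where no value shows it. Where 1 library is left out, its genotype has 1 sample, assumed to vary like the other group.

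Of the transporters, 8 were called higher and 5 lower. The higher count was 2 with library size only, 4 with no filter and 5 with a log2 fold of at least 1, and it ran from 2 to 9 with 1 library left out. The lower count was 11 with library size only and 8 at an adjusted p under 0.1, and it ran from 3 to 5 with 1 library left out. The share of all tested genes called, 33.9% as reported, moved as well. It was 38.5% with library size only, 21.5% with no filter, 21.7% with a log2 fold of at least 1 and 43.4% at an adjusted p under 0.1. With any 1 library left out it was lower than as reported, so fewer calls there are not particular to the transporters. The median log2 fold of -0.05 was -0.43 with library size only, 0.0053 with upper quartile scaling, -0.091 with no filter, 0.10 over genes averaging 5 CPM or more, -0.12 in limma-voom and 0.0076 with GC and length removed, and it ran from -0.20 to 0.047 with 1 library left out.

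Replicate numbers were shared by the genotypes, but the labels do not say what they share, and the differences between replicates 1 and 2 of both genotypes correlated across 14801 genes at only 0.03 (Pearson). With the replicate block all 8 higher and 5 lower transporter calls were kept, with 3 more genes called (Slc3a2, Slc38a3 and Slc6a14), and over all genes 2622 were higher and 2704 lower.

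Signs of genes that did not pass turned as follows. Slc43a2 had -0.33 and Slc6a8 -0.25 with library size only, as had Slc38a9 (-0.20) and Slc1a5 (-0.18). Slc38a10 had 0.015 with upper quartile scaling and 0.0012 over genes averaging 5 CPM or more. Slc6a6 had 0.027 with GC and length removed and 0.0047 with the replicate block added, and Slc1a5 then had -0.074. With 1 library left out, Slc43a2 ran from -0.25 to 0.29, Slc15a2 from -0.35 to 0.17, Slc1a5 from -0.63 to 0.75 and Slc6a8 from -0.0016 to 0.20.

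Counts in the other lists moved more than 1.5 times in these cases. The share of all tested genes called moved too, from 33.9% to 38.5% with library size only and 21.7% with a log2 fold of at least 1. It was 21.7% after removal of GC and length trends, 26.4% with the replicate block added to that, and 21.5% with no filter. With any 1 library left out it was also lower. With library size only, the sensing list had 3 higher, the stress response 1 higher and 12 lower, the other carriers 7 lower and the partners 1 higher. With a log2 fold of at least 1, sensing had 5 higher and 1 lower, stress response 3 and 1, other carriers 2 lower, partners 1 and 2, and enzymes 2 and 1. After removal of GC and length trends, sensing had 3 lower, other carriers 1 lower, partners 0 higher and 2 lower, and enzymes 2 higher and 2 lower. With the replicate block and trends removed, other carriers had 2 lower, partners 1 higher, and enzymes 2 higher and 3 lower. Stress response had 6 lower with the replicate block and 5 lower at an adjusted p under 0.1. Partners had 2 lower with no filter. Enzymes had 3 lower with upper quartile scaling, with no filter, over genes of at least 5 CPM and in the older quasi-likelihood estimate. With 1 library left out, sensing ran from 3 to 7 higher and 1 to 5 lower, stress response from 2 to 8 and 0 to 4, other carriers from 1 to 4 and 1 to 3, partners from 1 to 2 and 2 to 3, and enzymes from 3 to 5 and 1 to 4.

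With the longest transcript length, the level per kilobase was 57.9 for Slc3a2, 28.6 for Slc38a10, 11.5 for Slc15a2 and 4.60 for Slc1a2.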

Other observations

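Slc6a14 and Slc36a2 are given here because their values stood out after they were seen. Slc6a14 encodes a broad carrier of neutral and cationic amino acids that is known from the lactating gland. It had 142 and 275 counts in the Nr1d1+/+ libraries and 17 and 85 in those labelled Nr1d1-/-, or 6.72 and 13.2 against 1.25 and 5.27 CPM. The genotypes did not overlap, but replicates of each genotype differed widely, and the log2 fold of -1.57 (SE 0.57) did not pass (adjusted p = 0.064 in edgeR).

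Slc36a2, a proton-coupled carrier of glycine and proline, was too low to test, with 3 and 6 counts in the Nr1d1+/+ libraries and 21 and 3 in those labelled Nr1d1-/-. The library with 21 counts is Nr1d1-/- replicate 1, in which the 12 skeletal muscle markers summed to 894 CPM. The part of muscle RNA in that count was not tested. Slc1a5 was also highest in that library, at 12.9 CPM. The same held for the called genes Slc7a5, Slc7a10, Slc7a11, Slc7a13, Slc7a14, Slc1a2 and Slc15a3, so that peak is not particular to Slc36a2 and Slc1a5. Slc6a2, the remaining gene called higher, was highest in Nr1d1-/- replicate 2. The part of muscle RNA in these levels was not tested.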
